A study of Arabidopsis thaliana with 6 samples.

Results

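The glutathione transferases (GSTs) of *Arabidopsis thaliana* were followed in seedlings of the *flu* 1-1 mutant that met light after 4 h of darkness or directly. The family was taken as 46 listed genes of the tau (28), phi (10), zeta (1), theta (1), lambda (3) and dehydroascorbate reductase (DHAR, 3) classes. Of these 46 genes, 20 stood in the count table, and 19 reached the minimum of 5 reads in some library that the test required, as did 10622 of all 11167 genes listed. The tested members were 9 tau, 7 phi, 1 zeta and 2 DHAR genes. The phi gene GSTF7 had 8 reads in all and no more than 3 in a library, and was not tested. The other 26 members, among them the theta gene, the 3 lambda genes and GSTU1 to GSTU6, were not analysed here.

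GSTs join the tripeptide glutathione to reactive or foreign molecules, which marks these for export to the vacuole, and several members also reduce peroxides or carry small ligands such as flavonoids. The tau and phi classes are large in plants and use a serine at the active site, whereas lambda and DHAR proteins use a cysteine, and the DHARs regenerate ascorbate from its oxidised form. Many GST genes are well known for their response to pathogens, herbicides, salicylate and oxidative stress, and TGA transcription factors, which bind the sequence TGACG in so-called as-1 elements, take part in that response.

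Whole seedlings, 2 weeks old and of the Col-0 ecotype, were held in water in the dark for 0 h or for 4 h, and then received 30 min of light at 30 µE. All plants were mutant in FLU, a brake on chlorophyll precursor synthesis, and plants without it build up protochlorophyllide in darkness, which generates singlet oxygen on illumination. Each group comprised 3 libraries made by bulk MARS-seq, which reads the 3′ ends of transcripts, and the study's methods for other RNA assays describe a replicate as several whole seedlings. No wild type and no seedlings kept 4 h in the light were in the series. Darkness, time in water and time of day therefore cannot be told apart. An effect of the mutation through singlet oxygen cannot be told apart from these either. One label field words the hours as exposure to light, whereas the protocol gives darkness followed by light and was followed here, and label and study differ on whether growth was in continuous light.

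The libraries held 1012425 to 2185464 reads in genes, and 3 reads corresponded to 1.37 to 2.96 CPM (reads of a gene relative to all reads of its library, after scaling), a floor that covers counting error only. *FLU* itself lay at 110 to 172 CPM after 0 h and 154 to 215 CPM after 4 h (edgeR log2 fold change 0.41, adjusted p = 0.124), and since 3′ reads do not show the lesion this checks nothing about the genotype. Replicate 3 of the 4 h group stood apart on a principal component holding 18% of the variance. It lay at 40.1, against -28.8 and -15.0 for the other 4 h libraries. Without this library 6 members were called, 5 of them among the 7 described below. Leaving out any other 1 library gave 5 to 7 members. Markers of leaf and of root were both present. The 12 leaf markers, all photosynthesis genes, summed to 60843 to 71202 CPM after 0 h and 44784 to 55534 CPM after 4 h. In edgeR 9 of them fell and 0 rose, where 8.18% of all genes tested fell and 8.37% rose. The 10 root markers measured summed to 205 to 304 CPM after 0 h and 195 to 328 CPM after 4 h, with 1 higher and 1 lower in edgeR. DESeq2 and limma-voom also called 9 leaf markers, but 0 and 1 root markers. In such bulk samples fewer cells of a type and less RNA per cell cannot be told apart, and the part of organ balance in the results below was not tested.

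Upstream sequences are shown first for the members that rose, for GSTF9 and GSTU20 among those that fell, and for the neighbours of these last genes. They are RefSeq sequences of the TAIR10.1 assembly, found by gene identifier, with each match to the TGA core TGACG or its reverse complement CGTCA in capitals and the strand of the gene 5′ to 3′. The first is the 250 bases before the annotated start of GSTU7, the member with the largest rise among those tested (chr2:12618900-12619149, minus strand). Its far end overlaps an annotated non-coding transcript, AT2G00850.

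GSTU7: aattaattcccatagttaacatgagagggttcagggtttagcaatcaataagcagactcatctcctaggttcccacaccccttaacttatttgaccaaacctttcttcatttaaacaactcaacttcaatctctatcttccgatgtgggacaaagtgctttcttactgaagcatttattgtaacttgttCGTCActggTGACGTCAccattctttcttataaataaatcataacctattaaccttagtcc

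GSTU7 carried 3 matches close together, 1 TGACG and 2 CGTCA, with the last pair overlapping in the palindrome TGACGTCA. The next pair are the 250 bases before the starts of the neighbouring genes GSTF9 (chr2:13138632-13138881, plus strand) and GSTF10 (chr2:13141040-13141289, plus strand), shown because the ratio of their reads differed most between the groups among the pairs tested. GSTF9 had no match and GSTF10 had 1 close before its start.

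GSTF9: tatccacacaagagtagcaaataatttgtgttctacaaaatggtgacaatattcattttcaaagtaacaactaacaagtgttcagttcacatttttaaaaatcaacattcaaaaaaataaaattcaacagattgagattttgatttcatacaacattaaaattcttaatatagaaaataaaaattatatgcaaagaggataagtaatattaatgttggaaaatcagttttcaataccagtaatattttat
GSTF10: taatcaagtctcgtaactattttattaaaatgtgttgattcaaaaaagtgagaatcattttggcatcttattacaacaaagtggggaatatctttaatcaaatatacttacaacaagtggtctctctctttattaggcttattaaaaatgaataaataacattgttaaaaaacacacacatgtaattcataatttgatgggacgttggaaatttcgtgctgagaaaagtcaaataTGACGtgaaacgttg

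The last 3 are 30-base stretches around TGACG at GSTF8 (chr2:19556121-19556150, plus strand, within the neighbouring gene AT2G47710), GSTU19 (chr1:29487961-29487990, minus strand) and GSTU20 (chr1:29485344-29485373, minus strand). Those of GSTU19 and GSTU20 lie just inside the annotated transcript start. The match and the bases taacg after it are the same in GSTU19 and GSTU20. GSTF8 rose and GSTU20 fell, while GSTU19 did not pass the test.

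GSTF8: actttgatttgaTGACGtggctggtcctca
GSTU19: taaagagtggtgTGACGtaacgactagagt
GSTU20: aaaaagctgatgTGACGtaacgggaatcaa

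Over the family, 7 of the 19 tested members passed the test (edgeR adjusted p under 0.05), against 16.6% of all genes tested. GSTU7 and GSTF8 rose after 4 h of darkness (8.37% of all genes did), and GSTF9, GSTF11, GSTU18, GSTU20 and DHAR3 fell (8.18%). The remaining 12 did not pass, with 7 estimates above 0 and 5 below. GSTF11 and DHAR1 reached the minimum of 5 reads only through 0 h libraries, where they were high, so that a fall was the outcome open to them. Of the other 17 tested members, a split made after seeing the data, 6 were called, 2 higher and 4 lower, against 17.6% of the genes that reached the minimum in both groups. The median log2 fold change was -0.80 over the 19 and 0.16 over these 17, against -0.06 over all genes tested and -0.02 over those that reached the minimum in both groups, so the median changed sign without GSTF11 and DHAR1. By class, 1 tau gene rose and 2 fell of 9, with a median of -0.87. Of the 7 phi genes 1 rose and 2 fell, with a median of 0.74, and the DHARs gave 1 lower gene of 2. In 9 of the 19 the 0 h and 4 h libraries were fully apart, against 32.3% of all genes tested. GSTF11 was among these 9. The share over all genes also includes genes that reached the minimum only through the 0 h or only through the 4 h group. This count is therefore a description. In all, 9 of the 20 members in the table overlap another annotated gene, among them GSTU7, GSTU18, GSTF8 and GSTF11. GSTU18 and GSTF8 overlap a gene on their own strand, where strand cannot separate the reads. The strand setting of the counting is not given in the sources used here. Reads of genes with an overlap on the opposite strand could therefore also be shared. Calls of GSTU7, GSTF8, GSTF9, GSTU20 and DHAR3 were made under every alternative listed in the closing section, and those of GSTU18 and GSTF11 were not.

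**Figure D1:**
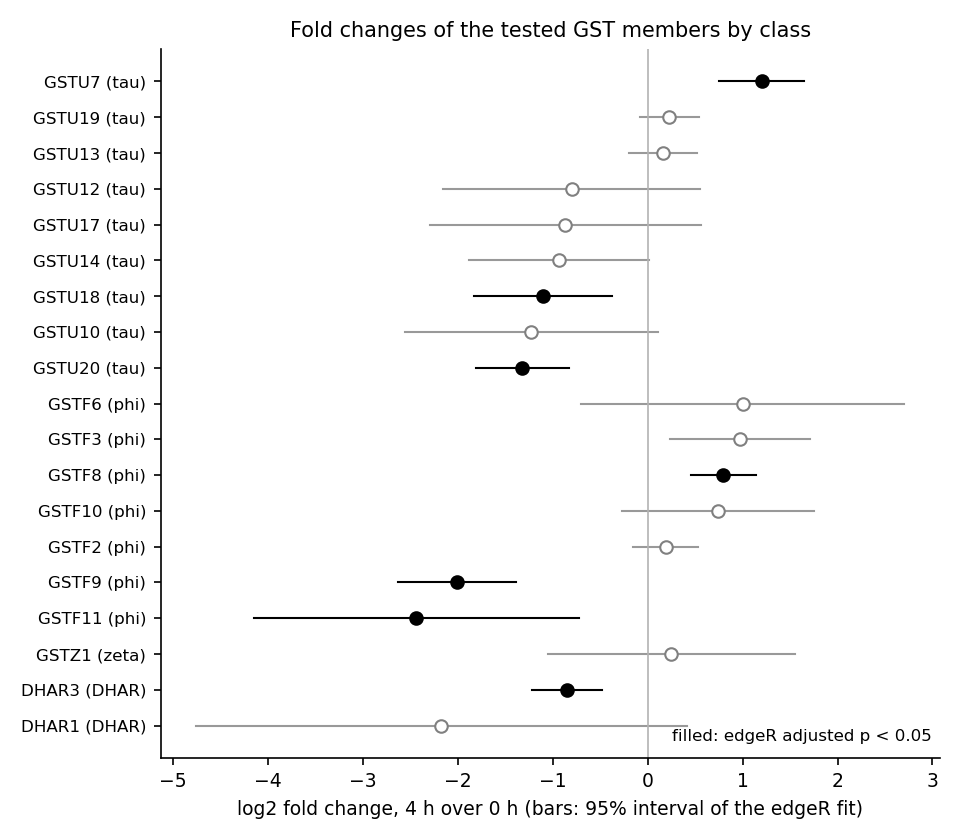
Log2 fold changes of the 19 tested members, 4 h over 0 h of darkness (x axis), ordered by class (y axis), with 95% intervals of the edgeR fit as bars and members past an adjusted p of 0.05 filled. The filled points run from -2.44 for GSTF11 to 1.20 for GSTU7, with members on either side of 0 in both the tau and the phi class.

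Reads were spread unevenly over the 20 listed members, and the shares differed between the groups. GSTF8 took 30.1% to 46.7% of the members' reads in the 0 h libraries and 52.7% to 56.6% in the 4 h libraries. GSTF9 took 6.51% to 11.9% after 0 h and 0.853% to 2.98% after 4 h, below GSTU13 and GSTU7 in each 4 h library. The summed level of the phi class was 1141, 1441 and 1223 CPM after 0 h and 1896, 1788 and 1535 CPM after 4 h, so that each 4 h library lay above each 0 h library. Without GSTF8 the phi sums were 467, 430 and 649 CPM after 0 h and 538, 405 and 354 CPM after 4 h, which overlapped, with a lower mean after 4 h. The tau class summed to 463, 547 and 533 CPM after 0 h and to 584, 577 and 481 CPM after 4 h, with overlap. The DHAR pair summed to 146, 171 and 152 CPM and then to 93.7, 97.5 and 64.3 CPM, without overlap. This sum was almost wholly DHAR3 (1159 reads, against 14 of DHAR1), and the groups overlapped in DHAR1 itself. All listed members together gave a mean of 1943 ± 207 CPM after 0 h and 2376 ± 258 CPM after 4 h (SD, n = 3), and 1189 ± 131 and 1069 ± 158 CPM with GSTF8 left out. These sums are descriptions and were not tested.

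**Figure D2:**
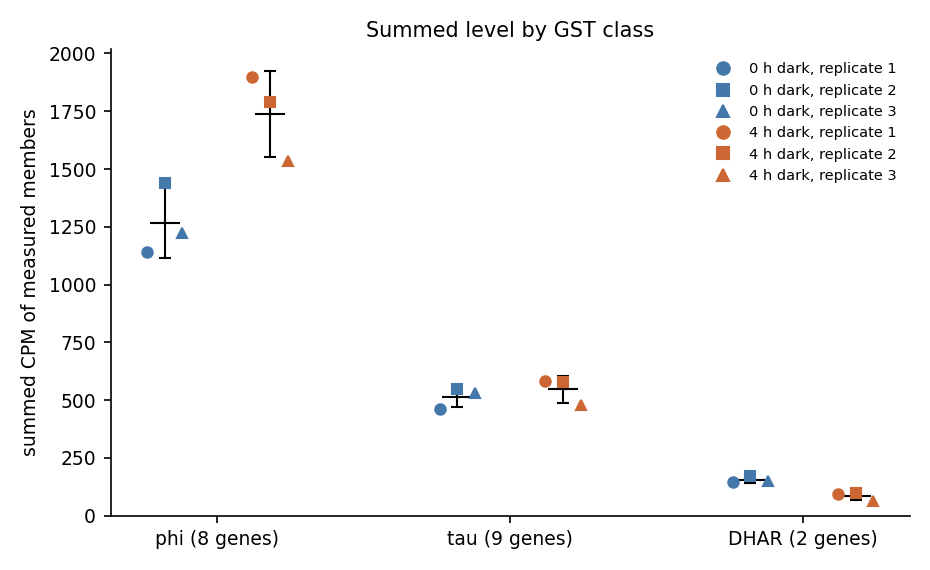
Summed CPM of the listed members of the phi, tau and DHAR classes (x axis, number of genes in brackets) in each library (symbols by replicate, colours by hours of darkness), with group means and SD in black. The phi sums lie between 1141 and 1441 CPM after 0 h and between 1535 and 1896 CPM after 4 h, whereas the tau sums overlap, as do the phi sums without GSTF8 (430 to 649 CPM after 0 h, 354 to 538 CPM after 4 h).

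Among the phi genes, GSTF8 (AT2G47730) is a widely used marker of early defence and oxidative stress responses. Its 6-exon gene model lies on chromosome 2, from 19556326 to 19559485 on the plus strand of TAIR10.1. GSTF8 was measured at 674, 1011 and 574 CPM after 0 h and at 1358, 1382 and 1181 CPM after 4 h. The lowest 4 h library was above the highest 0 h library. The 1.73-fold rise was 0.79 on the log2 scale (SE 0.17, adjusted p = 0.00129 in edgeR), and leaving out 1 library at a time gave 0.63 to 1.09.

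GSTF9 (AT2G30860) and GSTF10 (AT2G30870) are tandem phi genes 0.898 kb apart on chromosome 2, whose predicted proteins are 80.0% identical, and GSTF9 has been linked to glucosinolate synthesis. GSTF9 fell from 155, 141 and 226 CPM after 0 h to 76.9, 22.6 and 17.8 CPM after 4 h. All 4 h libraries were below all 0 h libraries, and replicate 1 of the 4 h group was well above the other 2. This 4.02-fold fall was a log2 value of -2.01 (SE 0.30, adjusted p = 3.62e-05 in edgeR), and it moved to -3.09 without flu_4h replicate 1. GSTF10, an early dehydration-responsive gene, had only 5, 8 and 12 reads after 0 h and 13, 15 and 7 reads after 4 h. Its log2 fold change was 0.74, with an interval of -0.27 to 1.75 (edgeR adjusted p = 0.344). Within a library GSTF9 had 46.1, 32.4 and 26.4 times the reads of GSTF10 after 0 h, and 12.6, 1.65 and 2.47 times after 4 h, each count raised by 0.5 reads.

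GSTF11 (AT3G03190), a phi gene proposed to act in the synthesis of aliphatic glucosinolates, was found at 7, 18 and 3 reads after 0 h and at 2, 2 and 0 reads after 4 h. On the log2 scale it fell by 2.44 (SE 0.83, adjusted p = 0.0446 in edgeR). The call was made without flu_0h replicate 3 and lost in each of the other 5 fits that left out 1 library. Without flu_0h replicate 2, which held most of its reads, the value was -1.69 (edgeR adjusted p = 0.341). The scaled reads gave 6.0 times more after 0 h, and counting error alone allowed 2.1 to 23.5 times (95% interval).

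GSTF2 (AT4G02520), an ethylene-inducible protein that binds auxin and camalexin, and GSTF3 (AT2G02930) have predicted proteins that are 92.5% identical, whereas the last 300 bases of their transcripts, where 3′ reads fall, are 49% identical. GSTF2 lay at 298, 263 and 393 CPM after 0 h and at 425, 348 and 309 CPM after 4 h. The groups overlapped, and the log2 fold change was 0.19, with an interval of -0.15 to 0.53 (edgeR adjusted p = 0.488). GSTF3 had 10, 17 and 22 reads and then 55, 21 and 12 reads, and its CPM values also overlapped. It gave 0.97 (SE 0.36) at an edgeR adjusted p of 0.0639. GSTF3 passed the test without flu_0h replicate 3 (1.37, edgeR adjusted p = 0.0204) and without flu_4h replicate 3 (log2 1.18, edgeR adjusted p = 0.0358). With any other library left out it did not pass, at edgeR adjusted p between 0.116 and 0.343. The lowest log2 value, 0.66, came without flu_4h replicate 1, which held 55 of its 88 reads after 4 h. GSTF6, known for its part in camalexin synthesis, and its neighbour GSTF7 have predicted proteins that are 93.3% identical. GSTF6 had 1, 5 and 3 reads after 0 h and 6, 1 and 8 after 4 h, and GSTF7 had 6 reads in the 0 h libraries together and 2 in the 4 h libraries.

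**Figure D3:**
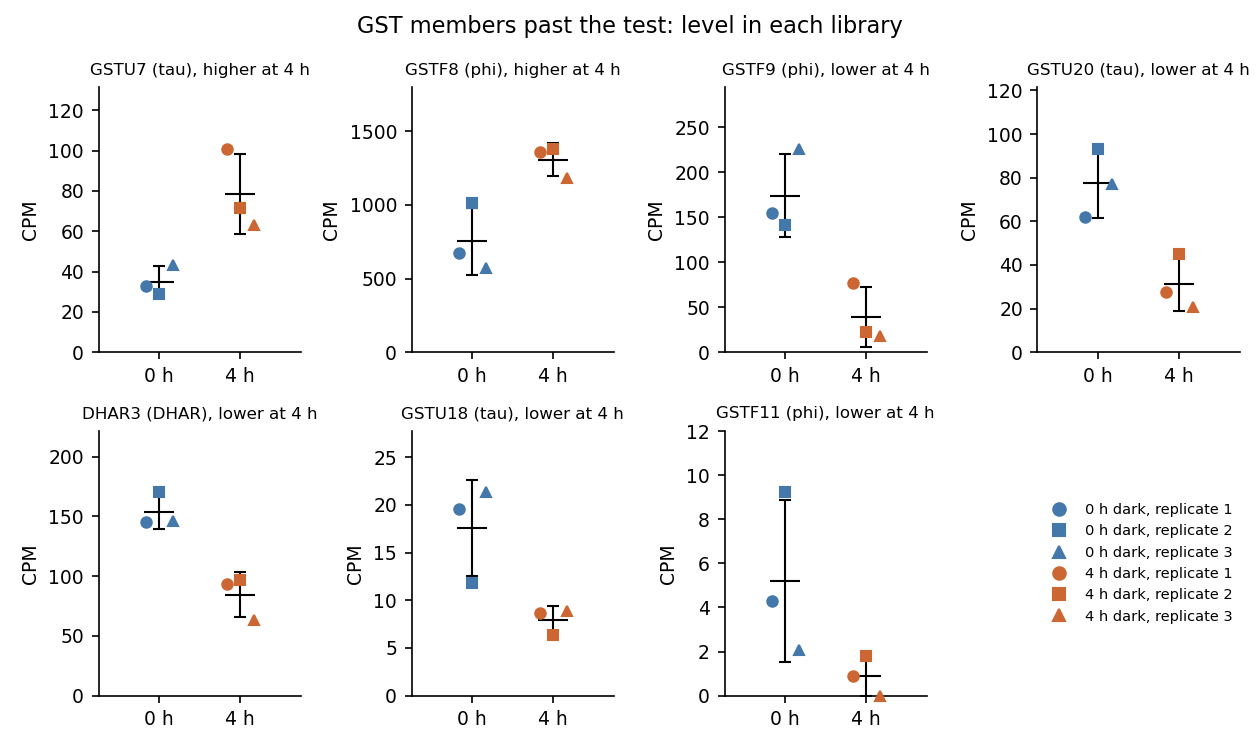
CPM (y axes, each from 0) of the 7 members past the test in each library after 0 h and 4 h of darkness (x axes), with symbols by replicate and group means with SD in black. In each panel no 4 h library overlaps a 0 h library, and GSTF9 shows replicate 1 of the 4 h group at 76.9 CPM against 22.6 and 17.8 CPM in the other 4 h libraries.

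Tau genes also moved in both directions. GSTU7 (AT2G29420), the only measured gene of the tau cluster GSTU1 to GSTU7 on chromosome 2, lies from 12617936 to 12618899 on the minus strand and has 2 exons. It was measured at 33.0, 28.7 and 43.4 CPM after 0 h and at 101, 71.3 and 63.3 CPM after 4 h, without overlap. This 2.30-fold rise (log2 1.20, SE 0.22, edgeR adjusted p = 0.0003) ranged from 0.96 to 1.38 with 1 library left out. On the opposite strand AT2G29410 and AT2G08340 overlap this gene model.

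GSTU19 (AT1G78380), a main enzyme for the conjugation of foreign chemicals, and GSTU20 (AT1G78370), which binds the jasmonate-conjugating enzyme JAR1, lie 0.998 kb apart on chromosome 1. Their predicted proteins are 73.5% identical. GSTU20 fell from 61.7, 93.3 and 77.1 CPM after 0 h to 27.8, 45.1 and 20.8 CPM after 4 h, without overlap (log2 -1.32, SE 0.24, adjusted p = 0.000272 in edgeR). GSTU19 was at 249, 292 and 285 CPM and then at 345, 338 and 282 CPM, with overlap, and its log2 fold change of 0.23 had an interval of -0.08 to 0.54 (edgeR adjusted p = 0.342). Within a library GSTU19 had 4.01, 3.12 and 3.68 times the reads of GSTU20 after 0 h and 12.4, 7.42 and 13.3 times after 4 h. This ratio does not depend on the scaling of libraries, and its 3 values after 4 h were all higher.

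GSTU17 (AT1G10370), an early dehydration-responsive gene, and GSTU18 (AT1G10360) have gene models that overlap on the same strand, with predicted proteins 74.9% identical. GSTU18 was measured at 19.6, 11.8 and 21.3 CPM after 0 h and at 8.65, 6.32 and 8.90 CPM after 4 h. All 4 h libraries were lower, with a log2 value of -1.10 (SE 0.35, adjusted p = 0.0320 in edgeR), a call that was lost in 5 of the 6 fits without 1 library, all but that without flu_0h replicate 2 (edgeR adjusted p between 0.0556 and 0.124). GSTU17 had 3, 8 and 10 reads and then 6, 2 and 2, at a log2 fold change of -0.87 (edgeR adjusted p = 0.447). Next to each other on chromosome 1, GSTU13 lay between 79.8 and 106 CPM in all libraries (log2 0.16, interval -0.19 to 0.52), and GSTU14 at 7.95, 12.8 and 6.19 CPM and then at 5.92, 2.71 and 4.94 CPM (log2 -0.94, interval -1.88 to 0.01, edgeR adjusted p = 0.180). GSTU10, with 7, 11 and 7 reads and then 5, 3 and 1, and GSTU12, with 2, 12 and 12 and then 8, 4 and 1, gave log2 values of -1.23 and -0.80 and did not pass.

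Of the 4 neighbouring pairs with at least 20 reads in each gene, the read ratios were fully apart between 0 h and 4 h in GSTU19/GSTU20, GSTU13/GSTU14 and GSTF9/GSTF10. The log2 ratios changed by 1.57, 1.09 and -3.20, each with a two-sided exact permutation p = 0.1, the smallest that 3 against 3 libraries can give (0.133 after Benjamini-Hochberg adjustment over the 4 pairs). For GSTU17/GSTU18 the change was 0.39 (exact permutation p = 1). With 3 libraries a group this exact test cannot reach a p of 0.05.

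**Figure D4:**
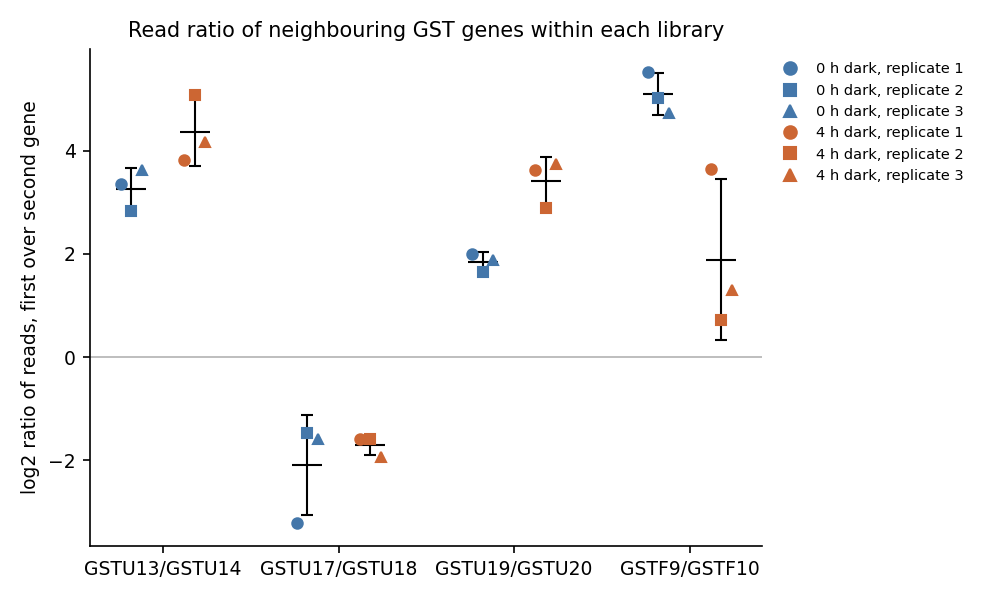
Log2 ratio of reads of the first over the second gene of 4 neighbouring pairs (x axis) within each library, after adding 0.5 reads to each count, with symbols by replicate, colours by hours of darkness and group means with SD in black. The groups are apart for GSTU13/GSTU14, GSTU19/GSTU20 and GSTF9/GSTF10, which fell by 3.20 on the log2 scale, and overlap for GSTU17/GSTU18.

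Of the DHARs, DHAR3 (AT5G16710, named dehydroascorbate reductase 1 in RefSeq) encodes the chloroplast enzyme and DHAR1 (AT1G19570) a cytosolic one. DHAR3, a 6-exon gene on chromosome 5 from 5483260 to 5485185 (plus strand), was measured at 146, 170 and 146 CPM after 0 h and at 93.7, 96.6 and 63.3 CPM after 4 h. No 4 h library reached the 0 h libraries in a 1.81-fold fall (log2 -0.85, SE 0.18, adjusted p = 0.00143 in edgeR). DHAR1 had 1, 2 and 9 reads after 0 h and 0, 1 and 1 after 4 h. Scaled, this was 5.14 times more after 0 h, and counting error alone allowed 1.1 to 47.3 times (edgeR adjusted p = 0.265). These values rested on flu_0h replicate 3, without which DHAR1 had too few reads to be tested, and the log2 value moved from -2.17 to -1.31 without flu_4h replicate 1. The zeta member GSTZ1 (AT2G02390), the maleylacetoacetate isomerase of tyrosine breakdown, had 38 reads in all and a log2 fold change of 0.25 with an interval of -1.05 to 1.55.

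Genes that work with GSTs were read from the same fit. Their counts of called genes stand beside the 16.6% called over all genes tested. Beside their counts at an unadjusted p under 0.05 in edgeR stand 3039 of the 10622 genes tested. In glutathione supply and recycling, 2 of 5 measured genes had an unadjusted p under 0.05 in edgeR. Of these, GGP1 had 21 reads after 0 h and 3 after 4 h and did not pass (edgeR adjusted p = 0.0746). It reached the minimum of 5 reads only through the 0 h group. Only 1 of the 5 genes passed, and it rose. This was GSH1 (AT4G23100), the glutamate-cysteine ligase that limits glutathione synthesis, at 394, 458 and 553 CPM after 0 h and 644, 750 and 724 CPM after 4 h (log2 0.59, SE 0.15, edgeR adjusted p = 0.00655), a call lost without flu_0h replicate 1 (adjusted p = 0.0702). Of 5 genes for the transport and turnover of glutathione conjugates 0 passed in edgeR, DESeq2 or limma-voom, with 2 at an unadjusted p under 0.05 in edgeR and a median log2 fold change of -0.49. One of these, chosen after its values were seen, was the vacuolar transporter gene ABCC3 with 11 reads after 0 h and 0 after 4 h (edgeR adjusted p = 0.0650). ABCC3 reached the minimum of 5 reads only through the 0 h group, so that a fall was the outcome open to it. Over the 4 genes of this list that reached the minimum in both groups the median was -0.46. Around the DHARs, 0 of 8 ascorbate peroxidase and monodehydroascorbate reductase genes passed, with log2 fold changes between -0.72 and 0.13. Of 4 other genes with a GST fold 0 passed. In both lists 0 genes had an unadjusted p under 0.05, and DESeq2 and limma-voom also called 0.

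Of 6 measured TGA factors and SCL14, TGA3 (AT1G22070) fell, with 21, 10 and 18 reads after 0 h and 8, 2 and 0 after 4 h (log2 -2.12, SE 0.59, edgeR adjusted p = 0.0133), and the call was lost without flu_0h replicate 1 or 3 and without flu_4h replicate 2 or 3 (adjusted p 0.0503 to 0.0829 in edgeR). Without flu_4h replicate 1 the log2 value was -3.28. Of the 6 estimates in this list 3 lay above 0 and 3 below, with a median of 0.04. TGA2, chosen after its values were seen, gave a log2 value of 1.01 with the groups fully apart. It did not pass (edgeR adjusted p = 0.0797). Other enzymes induced by foreign chemicals were called in 7 of 8 cases, 6 higher and 1 lower, with a median log2 fold change of 1.26. The oxophytodienoate reductase gene OPR1 went from 67.2, 104 and 71.6 CPM to 285, 289 and 248 CPM (log2 1.75, SE 0.18, edgeR adjusted p = 6.93e-08). The glucosyltransferase genes UGT75B1, UGT73B5 and UGT73B3 rose by 1.62, 1.33 and 1.19 on the log2 scale. The gene of this list that fell, named here although outside the 4 with the smallest p, was UGT74E2, with 26 reads in the 0 h libraries and 3 in the 4 h libraries, which reached the minimum of 5 reads only through the 0 h group. Scaled, this was 7.42 times more after 0 h (counting error alone allowed 2.28 to 38.3 times), and the call was lost without flu_0h replicate 1 or 3 and without flu_4h replicate 1. DESeq2 called 5 of the 8. These lists were drawn up by known function with earlier results of these data in view, so their counts are descriptions. Over all 36 partner genes tested 9 were called (25%, against 16.6% of all genes tested), and 5 without flu_0h replicate 1. Of the 9, 7 came from the list of enzymes induced by foreign chemicals, and the other lists gave only GSH1 and TGA3. Among the 31 partner genes that reached the minimum in both groups 8 were called (25.8%, against 17.6% of all such genes).

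In windows from 250 bases before to 50 bases after the annotated start, TGACG on either strand occurred at 7 of the 19 tested members (36.8%) and 19 of all 46 (41.3%), against 23.4% of the genes tested and 23.1% of all nuclear protein-coding genes. It was present at GSTU7 and GSTF8, which rose, and at 1 of the 5 members that fell, GSTU20. Also holding it were GSTU19, GSTF3, GSTF10 and DHAR1, which did not pass the test. The WRKY core TTGAC, which overlaps TGACG in TTGACG, was found at 10 of the 19 (52.6%, against 50.7% of genes tested), and the G-box CACGTG, read the same on both strands, at 5 (26.3%, against 9.24%). The heat shock core GAANNTTC, also the same on both strands, was found at 2 (10.5%, against 10.9%). These matches describe letters in a window and were not tested.

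Predicted proteins of the 20 members in the table were 28.8% to 93.3% identical within a class (65 pairs, median 40.2%) and 15.1% to 29.4% between classes (125 pairs). The pairs GSTU19 with GSTU20 and GSTF9 with GSTF10, at 73.5% and 80.0%, each joined a called lower gene with one that did not pass. All measured tau genes had 2 exons.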

How the data were processed

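The authors deposited raw counts of reads per gene for 6 MARS-seq libraries, without a filter on molecular identifiers, so reads may include amplification copies. Per the study's methods reads were trimmed, mapped to the Araport 11 reference with STAR and counted with HTSeq, and bcl2fastq 2.17.1.14 and cutadapt 1.8.3 stand in the submitters' notes on processing. The deposited table further gives a normalised signal, the counts over a library's size factor, used only for an alternative scaling. Its regularised log2 columns, also made by the authors, were not used.

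Genes reaching 5 reads in any 1 library were scaled by the trimmed mean of M-values and tested over all genes with edgeR 4.0.16 (quasi-likelihood test, group as the only term, Benjamini-Hochberg adjustment, R 4.3.3), after the procedure had been tested on simulated data. The study used DESeq2, tried here as an alternative (1.42.0). Fold changes compare 4 h with 0 h (3 libraries each), and intervals are 95% intervals of the fit or, for reads, exact (Clopper-Pearson) and covering counting error only.

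Groups and replicate numbers came from the sample titles. Nothing in the labels says that replicates came from separate cultures, so p-values cover only the spread seen among these libraries, which may be technical. No replicate pair agreed within sampling noise (chi-square per degree of freedom 2.95 to 5.69). Positions, sequences and predicted proteins came from the RefSeq TAIR10.1 annotation, where all 46 members matched by identifier. Near-identical meant at least 90% protein identity. The members, lists and tests were chosen with earlier results of these data known. Any member could be named, with full values for those called, the 5 with most reads and their neighbours or near-identical copies, and from each list up to 4 called genes by smallest p. Alternatives were other scalings, filters, DESeq2, limma-voom (limma 3.58.1), a replicate block, summed copies and leaving out each library.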

Additional observations from a re-analysis of the deposited data

How the results depend on the processing

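The count of members called was 7 in the fit reported and 5 to 8 over the alternatives, and the 5 calls of GSTU7, GSTF8, GSTF9, GSTU20 and DHAR3 were made in each of the 17. The count over all genes was 1758, with 1273 in DESeq2 and 1211 to 1548 without 1 library. The partner genes called ranged from 5 to 10 without 1 library. GSTU18 was also not called in DESeq2 (adjusted p = 0.106) and limma-voom (0.0603), and GSTF11 not in limma-voom (0.0985), while DESeq2 gave it no adjusted p and the 2 stricter filters did not keep it. GSTZ1 ranged from -0.18 (without flu_0h replicate 3, the only change of sign among the tested members, the called partner genes, ABCC3 and FLU) to 0.78 with 1 library left out. GSTF3 was called in limma-voom (adjusted p = 0.0486) but not in DESeq2 (adjusted p = 0.189). The cause of these changes was not tested. Deviations from the group means correlated only weakly between same-numbered libraries of the 2 groups, at 0.02 to 0.06. Between libraries of other numbers the values were -0.03 to 0.01, so each library correlated best with its own number. Whether the numbers mark pairs was not tested. With the replicate block 1979 genes and 8 members were called, the added one being GSTF3 (log2 0.97, edgeR adjusted p = 0.0357). Depth limits members with few reads, such as GSTF11, with 28 reads after 0 h and 4 after 4 h.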
